A study of Homo sapiens with 10 samples.

Results

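The genes described here regulate or build the machinery that copies and transcribes mitochondrial DNA, and MYC binding at them was read from 3 deposited peak lists. The set holds 10 genes of 20033 protein-coding genes on the chromosomes of the human genome. The members were chosen by their role and by the wild-type fold enrichment, which is highest at PPRC1, with earlier results of these lists known. The folds and counts below are therefore descriptions and carry no test. A summit, the base of a peak with the strongest signal, was counted for a gene when it lay inside the gene span or within 20 kb of either end. All 10 genes matched the RefSeq table of GRCh38.p14, and 7 had a wild-type summit.

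Mitochondrial biogenesis is driven from the nucleus. Coactivators of the PPARGC1 family, to which PPRC1 belongs, dock on transcription factors such as NRF1 and turn on nuclear genes for mitochondrial proteins. Among these are TFAM, TFB2M and the polymerase POLRMT, which together start transcription of the mitochondrial genome, and the polymerase POLG and helicase TWNK, which copy it. MYC is a transcription factor that pairs with MAX, binds E-box sequences and is known for driving growth and mitochondrial mass.

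The cells were U2OS, a human osteosarcoma line, in which MYC had been knocked out. They carried FLAG-tagged MYC under doxycycline control, either wild type (WT) or a mutant labelled 3A or 7A; the labels do not say which residues are changed. Cells of each kind received doxycycline at 1 µg/mL, over 24 h, and WT cells were also left uninduced. An antibody to FLAG was used for immunoprecipitation (IP) after 10% mouse NIH3T3 cells had been mixed in as a reference genome. The 10 libraries comprise 2 IPs each for induced WT, 3A and 7A and for uninduced WT, and 1 input each for induced and uninduced WT. Every group lacks endogenous MYC, and the antibody is directed at the tag of the introduced protein. The labels do not say whether the cells of a group come from 1 clone.

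Each induced protein has 1 list, with 4749 peaks for WT, 845 for 3A and 64 for 7A. The labels do not tell how the 2 libraries entered a list, and no uninduced or input list was used, so there is no spread between replicates and no background level from control cells. The value of a peak is the authors' fold enrichment, the signal at the summit divided by the local background. From the fold and the authors' −log10 p, the number of fragments over the summit and the background could be recovered for 4749 of 4749 WT peaks and 845 of 845 3A peaks. The 95% intervals given for folds are exact Poisson intervals of the fragment number, with the background held fixed. They cover counting error only, since PCR copies and differences between cultures are not in them.

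In the WT list 7 of the 10 genes had a summit: PPRC1, PPARGC1B, NRF1, TFAM, TFB2M, POLG and TWNK. Of all protein-coding genes 31.7% had one by the same rule. PPARGC1A, TFB1M and POLRMT had no summit in any list. In the 3A list PPRC1 and TFB2M had a summit, 2 of 10, where 7.21% of all genes did, and in the 7A list none did, where 0.359% did. Both genes with a 3A summit were among the 7 with a WT summit. Of the 6342 protein-coding genes with a WT summit in their window, 21.3% also had a 3A summit. When the window was narrowed from 20 kb to 1 kb, the counts were again 7 and 2 genes, against 21.2% of all genes for WT and 4.21% for 3A. The 7 genes had 9 WT summits, 3 of them in the window of PPRC1. All 7 genes had a summit inside the gene or at most 177 bp outside it, and no gene was counted through a neighbour's peak alone.

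**Figure D1:**
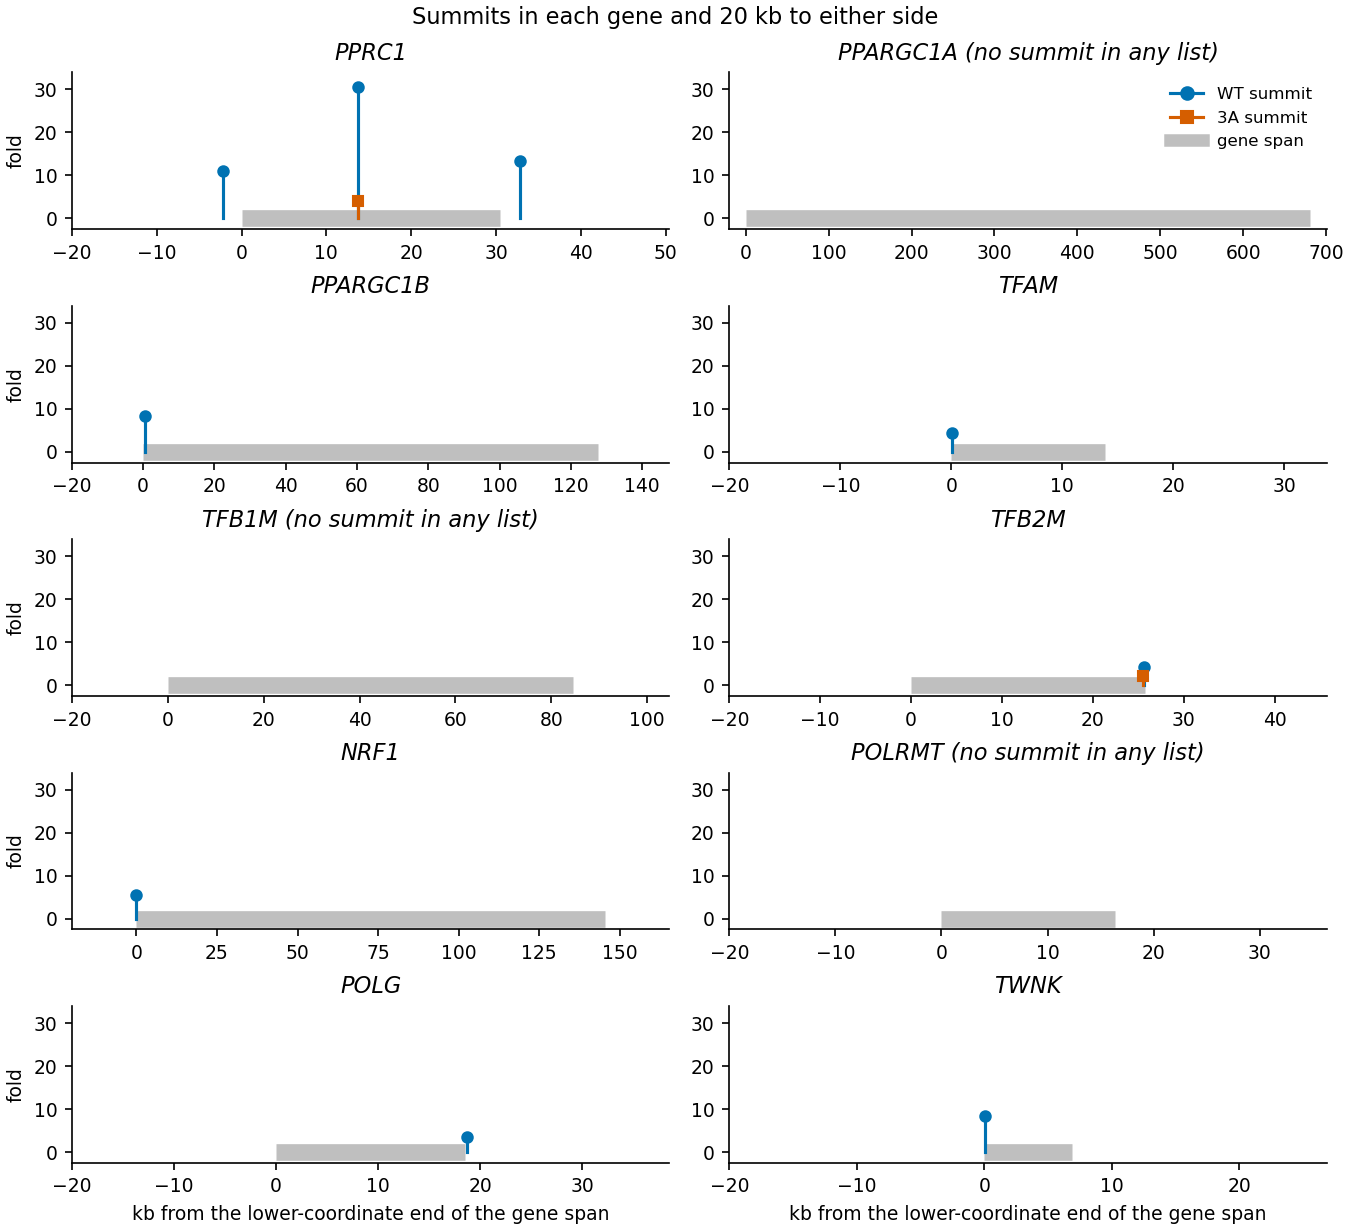
Each panel shows a gene span (grey bar) and 20 kb on both sides, in kb from the lower-coordinate end of the span, with every WT (circle) and 3A (square) summit at the height of the authors' fold enrichment; each panel has its own horizontal scale. Outside PPRC1, the summits sit at an end of the span, and the panels of PPARGC1A, TFB1M and POLRMT are empty.

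Among the 7 genes the fold of the leading WT peak ran from 30.5 at PPRC1 to 3.45 at POLG. PPRC1, with a 95% interval of 27.9 to 33.3, was chosen for its fold, so its lead over the other genes was given in advance. The next gene was TWNK (8.45, 95% interval 7.09 to 9.99). The folds of TWNK and PPARGC1B (8.34, 6.71 to 10.3) each lay inside the other's interval. NRF1 followed (5.58, 4.21 to 7.24), its fold below the interval of PPARGC1B. Next came TFAM (4.35, 3.54 to 5.29), TFB2M (4.24, 3.36 to 5.28) and POLG (3.45, 2.71 to 4.34). The differences between neighbours in this order were not tested, and an overlap of intervals does not show that folds are alike. The median of the 7 leading folds was 5.58, and it was 5.55 over the 6342 protein-coding genes with a WT summit in their window. Apart from PPRC1, the leading peaks lay between ranks 615 and 4307 of the WT list.

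**Figure D2:**
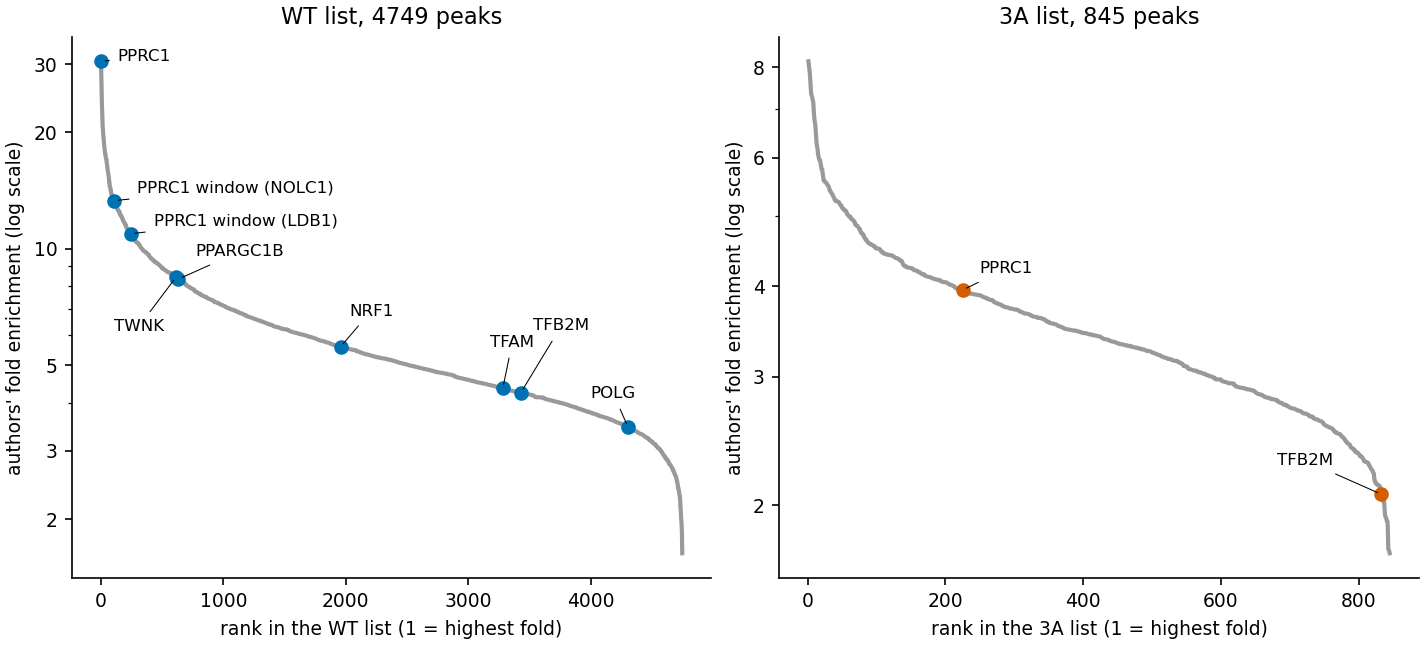
Authors' fold enrichment (log scale) against rank in the WT list (left) and in the 3A list (right), with all peaks as a grey line and summits in the windows of the 10 genes as points. WT summits run from rank 1 (PPRC1) to rank 4307 (POLG), and the 3A summits of PPRC1 and TFB2M have ranks 225 and 833.

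PPRC1 encodes a growth-responsive coactivator related to PPARGC1A. Its gene (gene ID 23082) spans chromosome 10, 102119889 to 102150333, and the RefSeq promoter table lists a start at 102133040 on the plus strand, inside that span. The WT peak, 102132700 to 102134098, covers this start, and its summit lies 602 bp downstream of it and 13753 bp from the nearer end of the span. Exon and intron positions were not used here. The 250 bases before the listed start, chr10:102132790-102133039 on the plus strand, lie under the peak. They are shown because they belong to the gene with the highest fold, with every match to the general E-box CANNTG in capitals, on either strand.
PPRC1: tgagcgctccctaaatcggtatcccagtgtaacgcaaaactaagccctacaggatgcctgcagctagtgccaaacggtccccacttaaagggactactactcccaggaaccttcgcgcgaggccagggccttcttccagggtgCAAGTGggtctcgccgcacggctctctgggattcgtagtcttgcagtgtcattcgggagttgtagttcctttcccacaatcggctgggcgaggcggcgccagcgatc
The only match is CAAGTG, 107 bases before the start and 704 bp from the WT summit. The 300-base window of the table, from 250 bases before to 50 after the start, has no CACGTG, the E-box that MYC with MAX binds most strongly. The summit itself lies outside that window, so these letters do not describe the bases beneath it.

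The WT peak at PPRC1 had 494 fragments over its summit against a local background of 15.2. Its fragment number ranked 7 of 4749 and its background 1688, so the fold joins a high signal with a background near the median of 13.0. The peak with the second highest fold, on chromosome 7 (4641464 to 4642590), had a fold of 29.6 (27.7 to 31.6) from 873 fragments over 28.5. Its interval overlaps that of PPRC1, and it ranks first by −log10 q (925 against 535). The 3A list had a peak at PPRC1 (102133033 to 102133857) with its summit 5 bp from the WT summit. Its fold was 3.95 (3.10 to 4.96) with a −log10 q of 17.5, from 72 fragments over a background of 17.5, and it ranked 225 of 845 in that list. Of the 717 WT peaks with a 3A peak, 7.67% had summits at most 5 bp apart, and the median distance was 48 bp. The depth and scaling of the libraries are not known from the labels, so the WT and 3A values are set side by side without a test.

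The window of PPRC1 held 2 more WT summits, each inside a neighbouring gene and outside the span of PPRC1. One, with a fold of 10.9 (9.22 to 12.9), lay inside LDB1, which encodes an adaptor for LIM-domain proteins. It was 3699 bp from the end of LDB1 and nearer, at 2146 bp, to the end of PPRC1. The spans of these genes overlap, but the summit lies outside the overlap. The listed start nearest to this summit was that of LDB1, 2741 bp away, and the listed PPRC1 start was 15297 bp away. The other, with a fold of 13.3 (11.7 to 15.1), lay inside NOLC1, which encodes a nucleolar phosphoprotein, 364 bp from the end of NOLC1 and 2420 bp from PPRC1. Neither had a 3A peak, although they ranked 243 and 111 in the WT list. Of WT peaks with a fold of at least 10, 43.0% had a 3A peak. Among all protein-coding genes 1.34% had 3 or more WT summits by the rule used here.

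**Figure D3:**
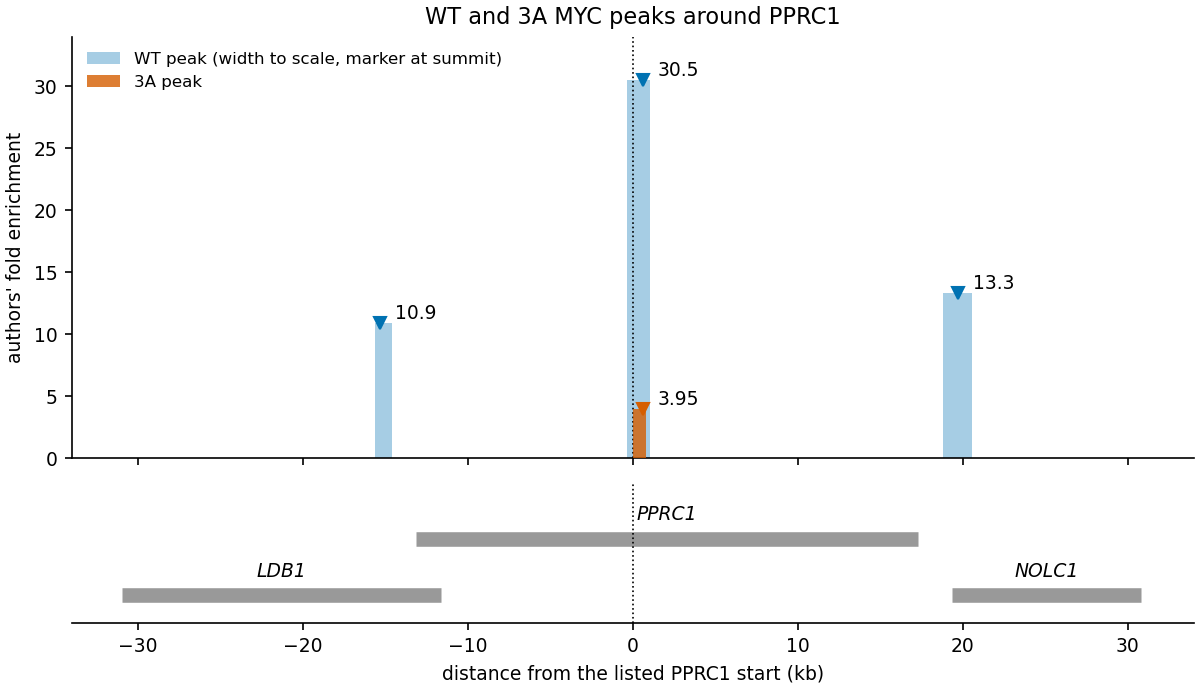
WT and 3A peaks around PPRC1, drawn to scale in kb from its listed start, at the height of the authors' fold enrichment with a marker at each summit; grey bars are gene spans. The WT peak of fold 30.5 and the 3A peak of fold 3.95 have summits 5 bp apart, 602 and 607 bp after the listed start. The flanking WT peaks (10.9 and 13.3) have no 3A peak.

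The other coactivators differed from each other. PPARGC1B (gene ID 133522, chromosome 5, 149730310 to 149857959) encodes a coactivator of oxidative metabolism. Its WT peak, 149730019 to 149732036, was 2018 bp wide, rank 81 of the WT list by width, with a fold of 8.34 and a −log10 q of 48.5. The summit lay 648 bp inside the lower-coordinate end of the gene. It lay 40982 bp from the start that the promoter table lists. The 3A summit closest to the gene was 591718 bp away.

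PPARGC1A (gene ID 10891, chromosome 4, 23792021 to 24472905) encodes the family member best known for inducing mitochondria in muscle, liver and brown fat. Its span of 681 kb held no summit of any list. Of the 315 protein-coding genes spanning over 500 kb, 28.6% had a WT summit in their window. The nearest WT and 3A summits lay 111125 and 111271 bp from the gene. The bases before its upstream listed start are shown because they hold a CACGTG with no peak (chr4:24472906-24473155, minus strand, E-box in capitals).
PPARGC1A: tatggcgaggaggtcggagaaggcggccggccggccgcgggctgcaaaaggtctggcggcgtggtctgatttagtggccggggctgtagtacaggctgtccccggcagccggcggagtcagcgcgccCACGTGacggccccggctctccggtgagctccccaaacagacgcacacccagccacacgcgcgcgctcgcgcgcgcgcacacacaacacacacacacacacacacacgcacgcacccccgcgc
CACGTG begins 123 bases before the start. Among all 35116 listed promoter windows, 7.26% hold CACGTG on either strand. The share was 27.5% of the 1591 windows that contain a WT summit and 6.30% of the others. The PPARGC1A window is thus one of 2111 with these letters and no WT summit.

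NRF1 (gene ID 4899, chromosome 7, 129611720 to 129757076) encodes the nuclear respiratory factor that binds GC-rich palindromes in promoters of mitochondrial genes. Its WT peak, 129611367 to 129611762, had the summit 99 bp outside the lower-coordinate end of the span. At 396 bp it was the narrowest of the 9 WT peaks in these windows, and its fold was 5.58 from 54 fragments over a background of 8.86. The nearest 3A summit lay 294260 bp away. The next protein-coding gene end, that of SMKR1, was 98703 bp from the summit.

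The genes of the mitochondrial transcription machinery divided into those with a WT peak at the start and those with none. The peaks had folds below the WT list median of 5.14. TFAM (gene ID 7019, chromosome 10, 58385410 to 58399220) encodes the protein that packages mitochondrial DNA and bends its promoters. Its WT peak, 58385075 to 58385805, had the summit 50 bp from the listed start, inside the gene. The fold was 4.35 with a −log10 q of 29.1. By fold it ranked 3283, and by −log10 q 1928, with 98 fragments over a background of 21.7 that was itself among the higher ones (rank 526). The nearest 3A summit lay 50358 bp away.

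TFB2M (gene ID 64216, chromosome 1, 246540561 to 246566261) encodes the factor that opens mitochondrial promoters for POLRMT. It shares a short gap with CNST, which is transcribed the other way, so a peak here belongs to both genes by position. The WT peak, 246565457 to 246567251, had a fold of 4.24 with the summit 59 bp inside TFB2M and 254 bp from CNST. The 3A list had a peak here too (246565602 to 246566434), with a fold of 2.07 (1.54 to 2.73) from 48 fragments over a background of 22.7. It ranked 833 of 845 by fold, and its −log10 q of 2.52 ranked 842. The 3A and WT summits were 172 bp apart, a distance reached by 14.5% of WT peaks with a 3A peak.

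A CACGTG lies 9 bp from the WT summit of TFB2M. The 30 bases that hold it, chr1:246566206-246566235 on the plus strand and inside the TFB2M span, are shown with the E-box in capitals. They are followed by the 194 bases between the starts of TFB2M and CNST, chr1:246566262-246566455 on the minus strand, where the capitals mark CATGCGC, which is GCGCATG read on the other strand.
TFB2M, E-box by the WT summit: tatccCACGTGgaacattttctggcgtccg
TFB2M to CNST: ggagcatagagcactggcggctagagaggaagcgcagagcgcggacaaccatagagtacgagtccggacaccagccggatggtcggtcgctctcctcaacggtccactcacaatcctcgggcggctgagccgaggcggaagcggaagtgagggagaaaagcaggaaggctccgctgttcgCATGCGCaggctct
The stretch between the starts holds no CANNTG. Among the 1591 promoter windows with a WT summit, 6.41% have a CACGTG within 9 bp of it. The TFB2M summit lies outside the windows of TFB2M and CNST, so it is not part of that share. Letters outside the windows were not read for the share.

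TFB1M (gene ID 51106, chromosome 6, 155229871 to 155314484), which encodes the methyltransferase of the small mitochondrial ribosomal RNA, and POLRMT (gene ID 5442, chromosome 19, 617221 to 633537), the mitochondrial RNA polymerase, had no summit in their windows. The nearest WT summit was 144065 bp from TFB1M and 28984 bp from POLRMT. That one lay inside RNF126, 693 bp from its end, with a fold of 6.73. In the 3A list the closest summit was 3416228 bp from TFB1M and 43877 bp from POLRMT. No peak in these lists means that none was called, not that the sites were free of MYC. The smallest WT fold that was called was 1.63.

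TFB2M, TFB1M and POLRMT have another run of letters in common before their starts. GCGCATG, read on both strands, is one arm with the centre of the GC-rich palindrome that NRF1 binds, and it occurs in 4.43% of all promoter windows. It was found at these 3 of the 8 genes with an entry in the promoter table, NRF1 and TWNK having none. This run of letters was chosen after a variant E-box, an ETS motif and longer, shorter and looser forms of the NRF1 palindrome had been looked for in these same promoters, so the share of the genes that hold it is no evidence beside the share of all windows. For the pair without a MYC peak the 250 bases before the listed start are shown, with matches to GCGCATG and to CANNTG in capitals. TFB1M is chr6:155314485-155314734 and POLRMT chr19:633538-633787, both on the minus strand.
TFB1M: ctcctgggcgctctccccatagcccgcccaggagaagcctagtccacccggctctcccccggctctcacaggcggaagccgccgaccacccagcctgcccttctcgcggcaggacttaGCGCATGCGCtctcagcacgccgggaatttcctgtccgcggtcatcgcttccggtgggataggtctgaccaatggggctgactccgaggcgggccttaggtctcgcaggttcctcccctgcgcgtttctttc
POLRMT: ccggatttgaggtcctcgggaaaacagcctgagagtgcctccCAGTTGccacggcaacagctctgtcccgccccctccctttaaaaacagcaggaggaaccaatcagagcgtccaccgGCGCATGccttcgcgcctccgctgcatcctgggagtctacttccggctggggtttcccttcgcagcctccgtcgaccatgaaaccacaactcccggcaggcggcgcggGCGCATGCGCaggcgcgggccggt
In TFB1M 2 overlapping matches, on opposite strands, begin 132 and 129 bases before the start. POLRMT has such a pair at 24 and 21 bases and 1 more match at 132. TFB2M has 1 match, 14 bases before its start and 67 bp from its WT summit. The TFB1M window holds no CANNTG, and the POLRMT window holds CAGTTG alone. The TFAM window holds neither CANNTG nor GCGCATG, and TFAM had a WT peak. That window ends at 58385459, just before the summit at 58385460, and the peak runs on to 58385805. The bases at the summit and beyond it were not read.

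The replication genes both had a WT peak at an end. TWNK (gene ID 56652, chromosome 10, 100987543 to 100994403) encodes the helicase that unwinds mitochondrial DNA. Its peak, 100987333 to 100987944, had a fold of 8.45 and a −log10 q of 73.7, with 134 fragments over the summit against 14.98. The summit lay 52 bp inside TWNK and 98 bp from MRPL43, a mitochondrial ribosomal protein gene read the other way, so the peak cannot be given to either gene alone. The 30 bases that begin at the summit, from the entry of MRPL43 (chr10:100987566-100987595, minus strand, inside the TWNK span), are shown for the E-box variant CACATG, in capitals, 24 bp from the summit.
TWNK, from the summit: ttcgccggcaacgtgagtctcccgCACATG
A CANNTG within 24 bp of the summit occurs in 24.8% of promoter windows that contain a WT summit. The nearest 3A summit was 801421 bp from TWNK.

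POLG (gene ID 5428, chromosome 15, 89316320 to 89334824) encodes the catalytic subunit of the mitochondrial DNA polymerase. Its WT peak, 89334297 to 89335639, had a fold of 3.45 and a −log10 q of 15.4, rank 4307 of 4749 by fold and 3697 by −log10 q. The summit lay 177 bp before the listed start, outside the gene. It is the one WT summit of the set that falls inside a gene's own promoter window, shown here as chr15:89334825-89335074 on the minus strand with its CANNTG match in capitals.
POLG: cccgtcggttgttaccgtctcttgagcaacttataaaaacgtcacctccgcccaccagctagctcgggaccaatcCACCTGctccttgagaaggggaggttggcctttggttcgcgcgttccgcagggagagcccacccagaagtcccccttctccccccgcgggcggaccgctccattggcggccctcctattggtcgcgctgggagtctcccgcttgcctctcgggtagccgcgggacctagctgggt
CACCTG begins 175 bases before the start, 2 bp from the summit. Of promoter windows with a WT summit 4.15% have a CANNTG within 2 bp of it, and 64.3% have one anywhere, against 68.7% of all windows. The nearest 3A summit was 694952 bp from POLG.

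The recovered components show that folds and fragment numbers can rank genes differently. TFAM had more fragments over its summit (98) than PPARGC1B (88), but the fold was 4.35 against 8.34 because the backgrounds were 21.7 and 9.67. POLG (71 fragments over 19.9) and NRF1 (54 over 8.86) form another such pair. The order of the genes by fold is therefore not their order by signal, except that PPRC1, with 494 fragments, and TWNK, with 134, come first by both.

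**Figure D4:**
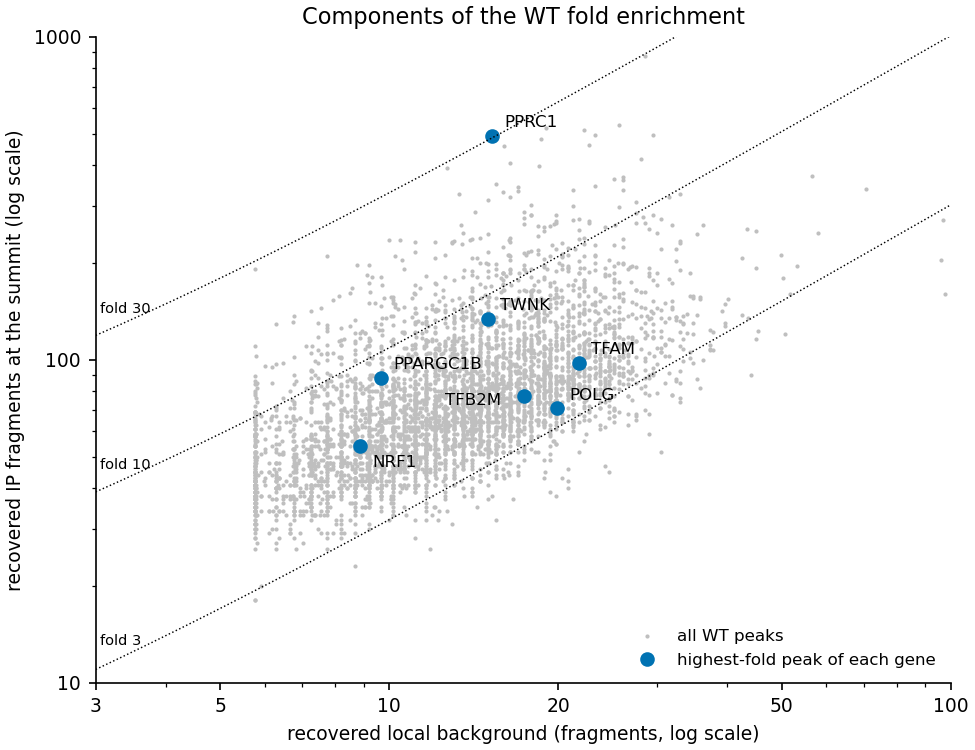
Recovered IP fragments over the summit against recovered local background for all WT peaks (grey) and the leading peak of the 7 genes (blue), both axes on a log scale, with dotted lines of equal fold. PPRC1 lies near the line of fold 30 at a mid-range background, and TFAM, TFB2M and POLG lie at higher backgrounds than PPARGC1B and NRF1.

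Across the set, 2 of the 9 WT peaks overlapped a 3A peak by at least 1 bp, where 15.1% of all WT peaks did. None overlapped a 7A peak, where 1.03% of all WT peaks did. The pair was made of the highest of the 9 folds, PPRC1, and the second lowest, TFB2M. PPRC1 alone was left when an overlap of 50% of both peaks, summits within 100 bp, or a −log10 q of at least 5 was required. The share of all WT peaks that meets these stricter rules is not given here, so the drop cannot be called particular to these genes. Over the whole list 43.0% of WT peaks with a fold of at least 10 had a 3A peak, and 9.27% of those with a fold under 5 did. The nearest 7A summits were 665 kb (TFB2M) to 78005 kb (NRF1) from the 9 genes whose chromosome has one, and chromosome 4, with PPARGC1A, had none.

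Other genes of the pathway were taken from 3 lists, which were also drawn up with earlier results known. In a list of 24 partners and upstream regulators 15 had a WT summit in the window, where 31.7% of all protein-coding genes did, and 2 a 3A summit (8.33%), where 7.21% did. A WT summit inside the gene or within 1 kb was found for 10, beside 21.2% of all genes. For 3A the count at that distance was 1 (4.17%), beside 4.21% of all genes. Of the 15 genes with a WT summit in the window 2 also had a 3A summit, beside 21.3% of all protein-coding genes with a WT summit. The highest fold, 13.3, in the window of HCFC1, a chromatin cofactor, was 12161 bp from that gene and 127 bp from RENBP. RXRA, a nuclear receptor, had a fold of 8.82 at 2566 bp, and GABPB1, a subunit of the factor GABP that acts with NRF1, 8.07 at 291 bp. ESRRA, the orphan receptor that PPARGC1A coactivates, had 7.19 with the summit inside the gene. The window of GABPB1 also held a 3A summit (fold 4.08), as did that of NFE2L2 (4.15). The leading WT summit in the NFE2L2 window was 17171 bp from that gene and 338 bp from HNRNPA3. None of the list had a 7A summit, where 0.359% of all protein-coding genes did.

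In a list of 21 genes for mitochondrial DNA replication, transcription and maintenance 13 had a WT summit (61.9%, beside 31.7% of all genes) and 12 had one within 1 kb (57.1%, beside 21.2%). A 3A summit was found in the window for 5 (23.8%, beside 7.21%) and within 1 kb for 2 (9.52%, beside 4.21%). Of the 13 genes with a WT summit 5 also had a 3A summit, beside 21.3% of all protein-coding genes with a WT summit. The folds given here are the highest in each gene's window in each list, so WT and 3A folds need not share a site. MGME1, a nuclease of mitochondrial DNA, had a fold of 13.5 in the WT list and 5.55 in the 3A list. Its WT summit lay inside the gene, 107 bp from its nearer end and 97 bp from an end of SNX5. LONP1, the matrix protease, had 12.5 and 7.16, with the WT summit 87 bp from the ribosomal protein gene RPL36 and 1452 bp from LONP1. RNASEH1, which removes RNA primers, had 11.9 and 5.08, with the WT summit 324 bp from the gene. LIG3, the DNA ligase of mitochondria, had 8.45 at 73 bp and no 3A summit.

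In a list of 19 genes for mitochondrial RNA processing and stability 14 had a WT summit (73.7%, beside 31.7% of all genes) and 13 had one within 1 kb (68.4%, beside 21.2%). A 3A summit was found in the window for 6 (31.6%, beside 7.21%) and within 1 kb for 4 (21.1%, beside 4.21%). Of the 14 genes with a WT summit 5 also had a 3A summit, beside 21.3% of all protein-coding genes with a WT summit. FASTK led with 12.0, but 14174 bp from the gene and 472 bp from another. TBRG4, a FASTK family member, had 10.3 with the summit 16 bp from its end, and PNPT1, the polynucleotide phosphorylase, 10.0 at 44 bp. SUPV3L1, the helicase that works with PNPT1, had 7.68 at 311 bp. The windows of TBRG4 (highest fold 4.12), PNPT1 (4.05) and SUPV3L1 (2.51) also held a 3A summit, not necessarily at the WT summit. HSD17B10 had a 3A summit (4.15), 8646 bp away, with no WT summit in the window. The medians of the leading WT folds were 6.08, 5.54 and 5.86 in the 3 lists, beside 5.58 for the 7 biogenesis regulators and 5.55 for the 6342 protein-coding genes with a WT summit, each taken over the genes that have one. 

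**Figure D5:**
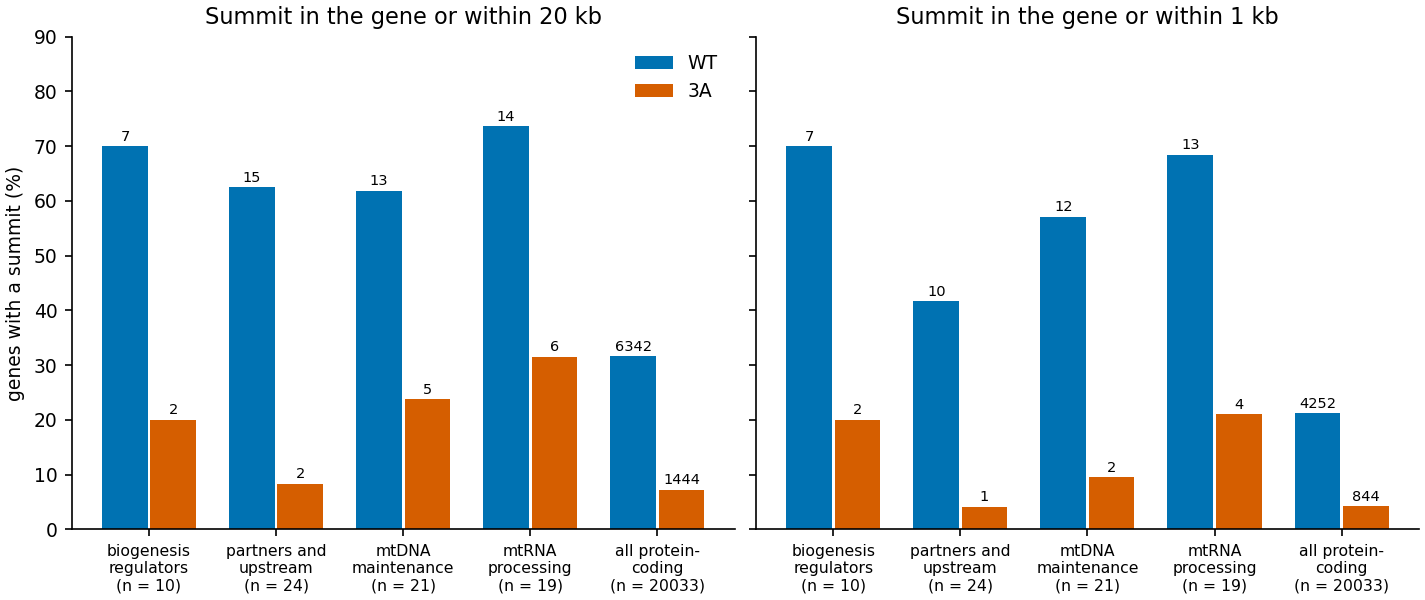
Share of genes with a WT (blue) or 3A (orange) summit in the gene or within 20 kb (left) or 1 kb (right), for the 10 biogenesis regulators, 3 lists of pathway genes and all protein-coding genes; the number of genes stands on each bar. WT bars of the 4 gene groups reach 61.9 to 73.7% at 20 kb, beside 31.7% for all genes.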

How the data were processed

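Per the submitters' processing notes, cutadapt, Bowtie2, SAMtools, Picard and MACS2 were used, with builds hg19, mm10 and hg38 and no roles or versions. The control and the use of mouse reads were not stated there. Per the labels' protocols, cells were fixed in 1% formaldehyde for 10 min and chromatin was sheared to 200 to 500 bp.

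The authors deposited fold enrichments (a ratio of IP to local background), −log10 p and −log10 q values, and a score that was not used. The build was checked: an end of a GRCh38.p14 protein-coding gene was within 1 kb for 60.1% of WT summits, and for 5.96% after a shift of 100 kb.

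Members and gene lists were chosen with earlier results of these data known, and 1 list per protein allows no test. All 10 genes are named, and of each pathway list up to 4 with the highest WT fold, and neighbours nearer to a summit. HSD17B10 and NFE2L2, outside this rule, were named after their values were seen. The fragment number k and background b were recovered from the fold, (k + 1)/(b + 1), and p, a Poisson tail, within 0.02 of the step between neighbouring k, and the recovery was tested on simulated data. Promoters of 300 bases and gene spans came from RefSeq, GRCh38.p14. CACGTG and CANNTG were set in the design, GCGCATG was chosen after other motifs had been tried in these promoters, and the distances to summits that all windows were counted at are the members' own. Alternatives covered windows, −log10 q minimums, overlaps and rankings. Python 3.11.15, numpy 2.4.6, pandas 2.3.3, scipy 1.17.1 and matplotlib 3.10.9 were used.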

Additional observations from a re-analysis of the deposited data

How the results depend on the processing

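Of 30 alternative values, 20 stayed within 1.5 times the main value and 10 moved. The 20 include every 7A value, each of them 0 as in the main setting, so they overstate how stable the other values are. The 10 include the ranks of PPRC1. The 7 genes with a WT summit remained 7 in number with windows of 1 or 5 kb, with a minimum −log10 q of 5 or 10, with any base of the peak counted, and with each summit given to its nearest gene, and were 8 with 50 kb. They were 4 when a summit within 1 kb of a listed start was required, a rule added after the data were seen, under which 18.8% of genes in the table passed. NRF1 and TWNK have no entry there. Over all 20033 protein-coding genes the WT count was 6342 in the main setting, 4252 with 1 kb and 4759 with 5 kb. It was 8573 with 50 kb and 3885 with each summit given to its nearest gene. A minimum −log10 q of 5 or 10 gave 6330 and 6087, and any base of the peak gave 6381. The 2 genes with a 3A summit became 1 with a minimum −log10 q of 5 and 1 with 10, where TFB2M drops out. With 50 kb they were 3. Over all genes the 3A count was 1444 in the main setting, 1403 and 1046 with these minimums, and 2196 with 50 kb. The 2 WT peaks with a 3A peak became 1 with 50% overlap of both peaks, 1 with summits within 100 bp, and 1 with a minimum −log10 q of 5 or 10 in both lists. No share of all WT peaks under these stricter rules stands beside these counts. The 7A counts were 0 throughout. Over all genes, those with a 7A summit ran from 37 with 1 kb to 127 with 50 kb. PPRC1 ranked 2 by −log10 q, 7 by recovered fragments (added after the data were seen) and 467 by width. No paired analysis was possible because each protein has 1 peak list with no value for a single library. With no replicate lists, differences in fold between genes have counting error only, and a site with no 3A or 7A peak cannot be told from one with a signal too weak to be called.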

Other observations

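Several WT summits lay just beyond the 20 kb window. A peak 24242 bp from POLG had a fold of 5.08, and one 33149 bp away a fold of 8.88, both outside protein-coding genes and with no 3A peak. The first is 400 bp from a listed start of LOC124903549. The second is 5464 bp from a listed start of MIR9-3HG, the host gene of a microRNA. On chromosome 19 a WT peak inside FSTL3, 43913 bp from POLRMT, had a fold of 15.4 and ranked 63, with a 3A peak of fold 4.50 whose summit was 36 bp away. CNST, the neighbour of TFB2M, had a second WT peak inside it, 42815 bp from TFB2M, with a fold of 5.76.

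Of 1289 other protein-coding genes with WT and 3A summits and no 7A summit in their windows, those most like PPRC1 by the distance of log2 leading WT and 3A folds were LDB1 and NOLC1, which have the PPRC1 peak in their own windows. NCL, the nucleolin gene, came next at a distance of 0.32, with leading folds of 27.0 (WT) and 3.28 (3A). CCDC116, SDF2L1, UBE2L3 and YDJC share 1 peak in each list, at 24.5 and 3.74, and are 0.32 away. The measure rests on 2 lists.

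GCGCATG, part of the NRF1 palindrome, occurred in 11.1% of the 1591 promoter windows with a WT summit and in 4.12% of the 33525 without one. The part of base composition in this was not tested.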
